A study of Mus musculus with 4 samples.

Results

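The translation initiation factors (eIF) and elongation factors (eEF) were followed as a gene family in sorted mouse blood stem and progenitor cells. Its members were all probe sets on the array whose annotation names exactly 1 gene with a symbol that starts with Eif or Eef. This gave 156 of the 45037 probe sets in the series and 59 of its 18193 named genes. The rule reads gene names and no measured value, although the family was picked with earlier results of these data known. The series set hematopoietic stem cells (HSC), sorted as CD34-negative KSL cells, against multipotent progenitors (MPP), sorted as CD34-positive KSL cells. KSL is the name of a sort gate that encloses the stem and early progenitor cells of bone marrow. All cells came from C57BL/6 mice, no treatment or engineered allele is named for either group, and each group had 2 arrays, which the labels call biological replicates although no label ties them to different animals. RNA equivalent to 3000 cells was amplified over 2 cycles for each array, so every value is the average of a sorted population, and the p-values rest on the spread among these 4 arrays, which may be technical.

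Protein synthesis starts when initiation factors bring the initiator tRNA, the small ribosomal subunit and the capped end of a messenger RNA together. eIF2 carries the initiator tRNA, and phosphorylation of eIF2 by stress kinases lowers initiation throughout the cell. The cap is bound by eIF4E, held by the scaffold eIF4G, and the leader is unwound by the helicase eIF4A, while eIF3 joins the messenger to the small subunit. The elongation factors then deliver aminoacyl-tRNA (eEF1) and move the ribosome along (eEF2). Blood stem cells are known to make protein at a lower rate than the progenitors that descend from them.

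Cd34, the antigen that divides the groups, and the summed stem cell markers followed the labels. Cd34 had 469 and 235 units in HSC, against 1967 and 2302 units in MPP. The summed level of 6 measured HSC markers was 6823 and 6621 units in HSC, against 1841 and 1595 units in MPP. Kit, another listed sort antigen, was called higher in HSC, with 1783 and 1415 units, against 995 and 1031 units in MPP. Its log2 difference was 0.65 (limma adjusted p = 0.0328). Ly6a, also listed, was not measured. Markers of other populations also differed. The dividing-cell markers Mki67, Top2a and Cdk1, all 3 above background on every array, summed to 1405 and 1169 units in HSC, against 6990 and 5873 units in MPP. The 3 macrophage markers, all above background on every array, summed to 153 and 118 units in HSC, against 418 and 684 units in MPP. Of these, Csf1r passed, with 54.0 and 30.9 units in HSC, against 282 and 552 units in MPP (limma adjusted p = 2.951e-04), while Adgre1 (log2 difference 0.12) and Cd68 (log2 difference -0.82, limma adjusted p = 0.0829) did not. The 3 megakaryocyte markers, of which Pf4 and Gp9 passed and Itga2b did not, summed to 979 and 709 units in HSC, against 490 and 334 units in MPP, and the erythroid factor Klf1 had 133 and 206 units in HSC, against 46.2 and 35.5 units in MPP. Of the 3 T cell markers, Cd3e and Cd4 were under background on all 4 arrays, and Cd8a was above it on all, with 44.4 and 46.2 units in HSC, against 16.0 and 30.3 units in MPP (limma adjusted p = 0.192). The 2 measured B cell markers summed to 150 and 170 units in HSC, against 127 and 185 units in MPP, with Cd79b above background on every array. The 4 neutrophil markers summed to 79.3 and 31.7 units in HSC, against 69.4 and 31.0 units in MPP, with Ngp above background on every array and Camp on none. The 3 markers of stroma and endothelium summed to 53.0 and 38.4 units in HSC, against 50.3 and 28.6 units in MPP, with Cdh5 above background on no array and Col1a1 and Cxcl12 on 1 each. The part of these cell populations in the results below was not tested, and in bulk samples fewer cells of a type and less RNA per cell cannot be told apart. The probe set at the 3′ end of the actin message read 5.26 and 9.42 times the one at its 5′ end in HSC. In MPP it read 4.99 and 5.01 times, so HSC replicate 2 stood apart in this measure of RNA length. The same ratio for Gapdh was 4.88 and 5.81 in HSC, against 5.15 and 5.01 in MPP. HSC replicate 2 was again the highest, by a smaller margin.

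Few translation factor probe sets differed between HSC and MPP past the threshold. Of the 156 probe sets, 131 (56 genes) passed the filter on dim probe sets and were tested. Among them 1, of Eif4a2, was higher in HSC (0.763%), against a background of 5.96% of all 27022 probe sets tested. Another 8 were lower in HSC (6.11%), against a background of 4.65%, and these belonged to Eif4a1, Eif2s3x, Eif3a, Eef1e1, Eif6, Eif2b5, Eef2k and Eif2s2. Calls are those with a Benjamini-Hochberg adjusted p under 0.05 in limma. The other 122 did not pass, and at an unadjusted p under 0.05 there were 5 higher (background 14.4%) and 21 lower (background 9.93%). Together these were 19.8% of the tested members, against 24.4% of all probe sets. The median log2 difference (HSC minus MPP) of the members was -0.06, and that of all probe sets tested was 0.11, a gap of -0.17. Both HSC arrays lay above both MPP arrays for 25 members (19.1%, background 33.3%) and below both for 37 members (28.2%, background 21.3%).

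Bright probe sets as a whole leaned to MPP, and 59 of the 131 tested members (45.0%) lay in the top decile of mean level. There the median log2 difference was -0.11 for members and -0.08 for all probe sets. In the decile below it, with 27 members, it was -0.05 for members and 0.02 for all. Of all probe sets in the top decile, 11.6% were called lower in HSC, and 4 of the 59 members there were. The split of the calls depended on the scaling of the arrays. When the arrays were set to equal medians, 21 members were lower and none higher (1 higher and 45 lower at an unadjusted p under 0.05), and the median of all probe sets was -0.13. Under that scaling 8.8% of all probe sets were lower and 3.77% higher, and 16.0% of members were called, against 12.6% of all. Quantile normalization gave 5 lower and 2 higher, or 5.30% of members, against 9.46% of all. The gap between the members' median and the overall one was -0.17 with equal medians and -0.05 after quantile normalization. Without MPP replicate 2 limma called no member (2 higher and 15 lower at an unadjusted p under 0.05), and without MPP replicate 1 it called only the Eif4a1 probe set. Without HSC replicate 1 it called 4 higher and 13 lower, no longer with Eif4a2. Without HSC replicate 2, the array set apart by its actin ratio, it called 3 higher and 9 lower, and the called probe sets of Eef1e1, Eif2b5 and Eif3a were lost. Without the trend on mean level no member passed (2 higher and 11 lower at an unadjusted p under 0.05), and without the filter on dim probe sets only Eef2k and Eif6 did. Of all probe sets, limma called 5.90% without MPP replicate 2, 6.38% without MPP replicate 1, 14.5% without HSC replicate 1, 11.3% without HSC replicate 2, 3.73% without the trend and 3.77% without the filter.

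**Figure D1:**
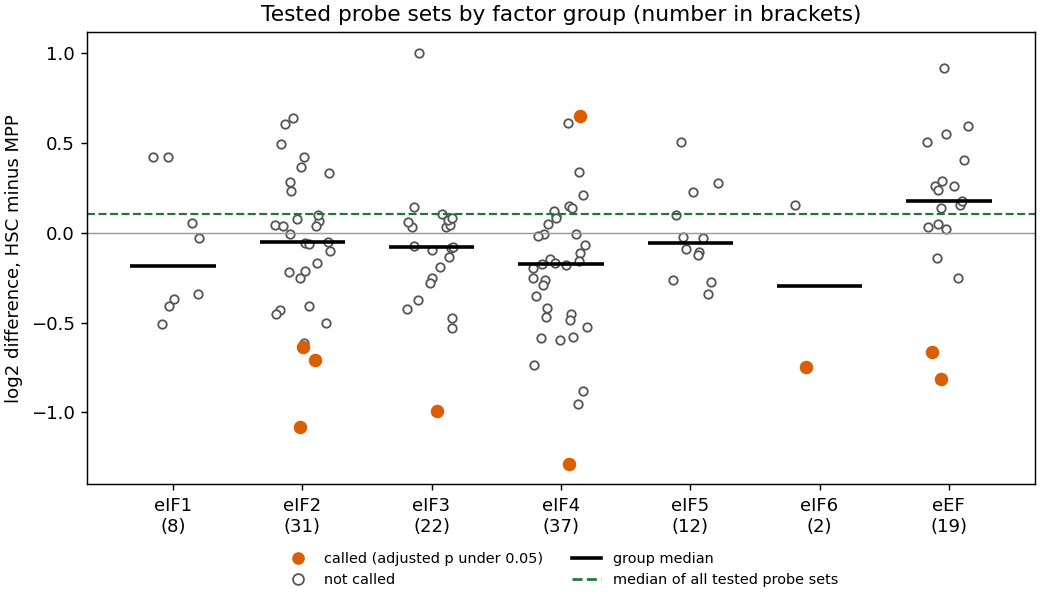
Log2 difference (HSC minus MPP) of the 131 tested probe sets, by factor group, with the 9 called ones in orange. The dashed green line is the median of all 27022 probe sets tested, 0.11, and most eIF4 points lie below it.

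**Figure D2:**
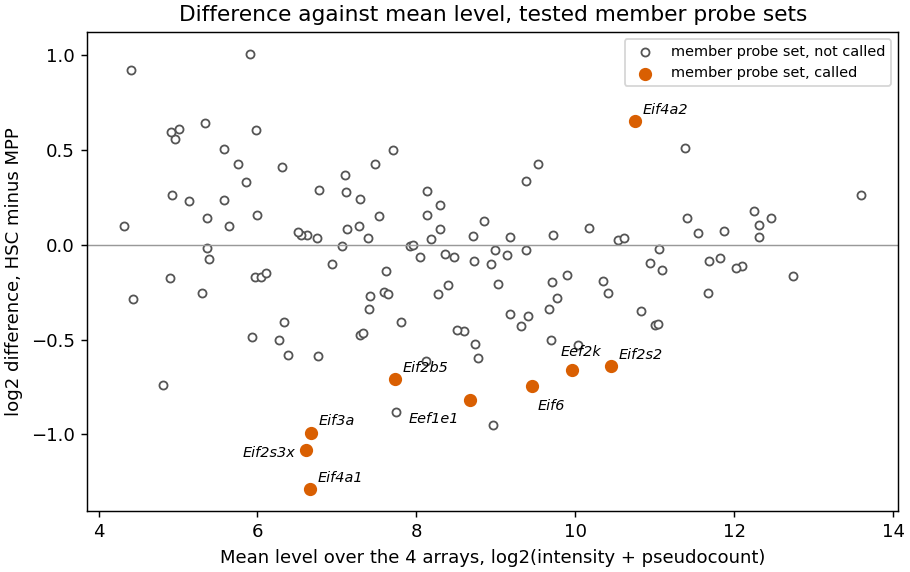
Log2 difference (HSC minus MPP) of each tested member against its mean log2 level, with called probe sets named. The 59 members in the top decile of level lie on both sides of 0, and their median is -0.11.

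The eIF4A helicases held the 1 probe set called higher and, among the members, the largest called decrease. Their gene starts are shown because the called probe sets of these paralogs moved in opposite directions. RefSeq gives (GRCm38.p6) the bases -200 to -1 before the start of Eif4a1 on the minus strand at chr11:69672424-69672623, and those of Eif4a2 on the plus strand at chr16:23107268-23107467. Capitals mark CACGTG, the E-box, which reads the same on both strands and is a motif bound by Myc with Max.
Eif4a1: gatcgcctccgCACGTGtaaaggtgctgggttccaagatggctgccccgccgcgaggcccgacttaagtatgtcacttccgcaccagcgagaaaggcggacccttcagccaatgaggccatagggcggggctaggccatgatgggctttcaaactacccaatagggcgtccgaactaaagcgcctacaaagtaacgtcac
Eif4a2: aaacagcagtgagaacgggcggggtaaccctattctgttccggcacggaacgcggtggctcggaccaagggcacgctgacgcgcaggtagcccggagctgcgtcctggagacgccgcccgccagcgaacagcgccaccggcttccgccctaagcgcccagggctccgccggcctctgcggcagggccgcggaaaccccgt
Counting the first transcribed base as 1, the Eif4a1 window holds 1 E-box at position -189, and the Eif4a2 window holds none. Among the 48 members with a RefSeq promoter entry, which runs from 250 bases before to 50 after the start, 12 held CACGTG (25%), against 11.5% of the 10042 tested genes with an entry and 8.09% of all 27025 genes there. A gene with several listed starts counted if any held it. By call, 3 of 7 genes lower in HSC held it, and so did 9 of 37 tested genes without a call. The other lower ones were Eef2k, on the plus strand of chr7:120842788-120842817 at the most upstream of its listed starts, with the box at position -31, and Eif3a, on the minus strand of chr19:60790654-60790683 with the box at position 23.
Eef2k: cccggggacggcCACGTGagcccgggcgtg
Eif3a: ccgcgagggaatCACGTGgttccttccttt
A match describes letters in this window only, and binding was not measured.

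Eif4a2, the close paralog of Eif4a1, had 2446 and 1912 units in HSC, against 1255 and 1504 units in MPP (gene on chromosome 16). Both HSC arrays lay above both MPP arrays. The log2 difference was 0.65 ± 0.18 (SE, n = 2 each), a 1.57-fold higher level, with a limma adjusted p of 0.0387. Its call was lost with equal array medians. Eif4a1 encodes the abundant helicase of the cap complex, and its 3 tested probe sets were all lower on average in HSC but unequally so. The called one, the second brightest, had 75.3 and 45.9 units in HSC, against 134 and 174 units in MPP. The groups did not overlap, and the log2 difference was -1.29 ± 0.29 (SE, n = 2 each; limma adjusted p = 0.0165). The brightest Eif4a1 probe set had 667 and 900 units in HSC, against 825 and 957 units in MPP. Its groups overlapped, and its log2 difference was -0.20 (limma adjusted p = 0.575). That difference was 0.02 without HSC replicate 1 and -0.41 without HSC replicate 2. Eif4a3, the helicase of the exon junction complex, was at or under background on all arrays and was not tested.

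**Figure D3:**
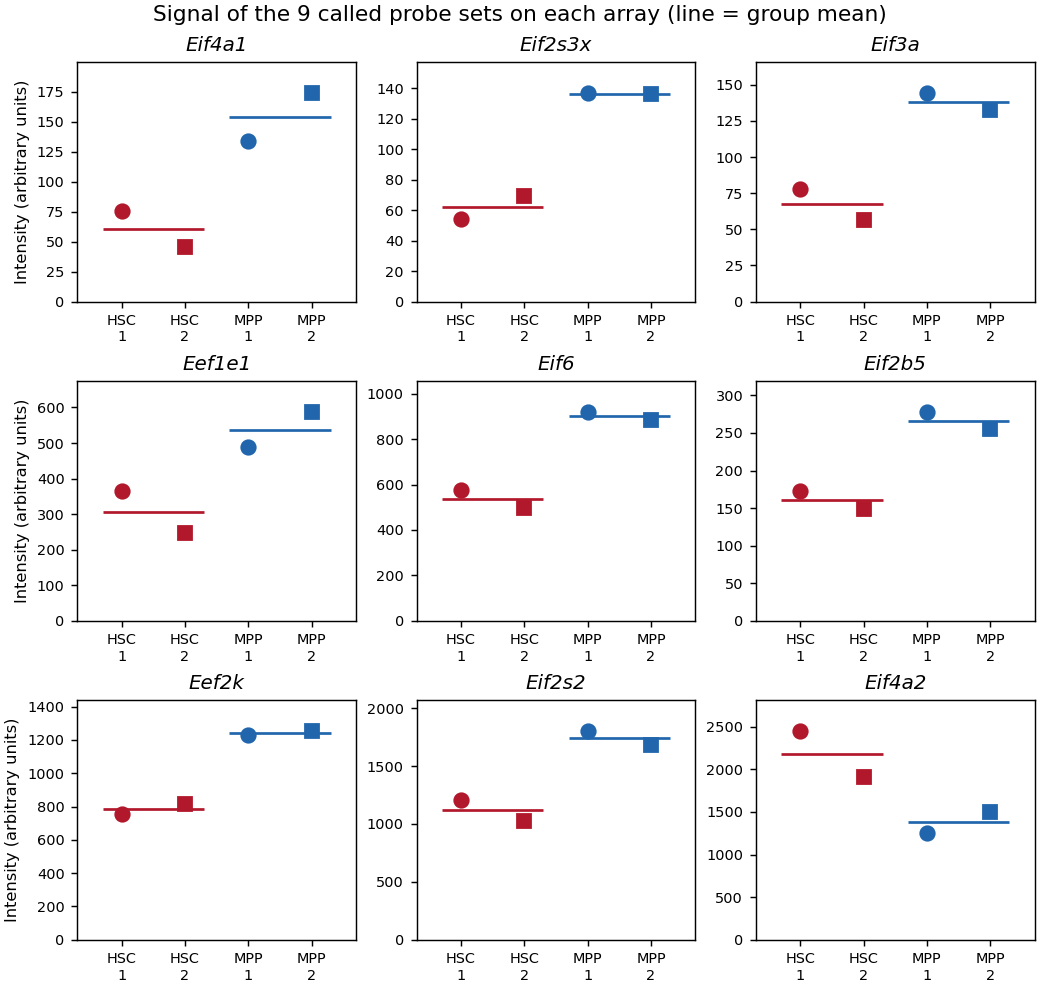
Intensity (arbitrary units) of the 9 called probe sets on each array, HSC left of MPP, with replicate 1 as a circle, replicate 2 as a square and the group mean as a line. Eif4a2 lies higher in HSC, at 2446 and 1912 units, and the other 8 lie lower.

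The cap-binding proteins held no call, and most of their probe sets had negative differences. The eIF4E family had 10 tested probe sets from 3 genes, so they are not 10 separate observations. Of these, 9 had a negative difference (background 41.7%), and 6 (60%) had both HSC arrays below both MPP arrays (background 21.3%). At an unadjusted p under 0.05, 5 were lower (background 9.93%) and 0 higher (background 14.4%). The median was -0.56, and it was -0.79 with equal medians and -0.51 after quantile normalization. Eif4e, the cap-binding subunit itself, had 329 and 371 units in HSC, against 530 and 482 units in MPP, in its middle probe set (log2 difference -0.52, limma adjusted p = 0.0920). Its brightest probe set had 586 and 211 units in HSC, against 669 and 705 units in MPP. HSC replicate 2 was the low array there, and the adjusted p was 0.128. With the tested probe sets of a gene averaged, Eif4e was called lower in limma. Eif4e2, a cap-binding paralog known for repressing translation, had 341 and 359 units in HSC, against 570 and 496 units in MPP (log2 difference -0.60, limma adjusted p = 0.0575). Eif4e3, a paralog that binds the cap in an atypical way, had 192 and 483 units in HSC, against 447 and 393 units in MPP, and its groups overlapped (limma adjusted p = 0.456).

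The partners of the cap complex showed no call where they were measured. Eif4g1 and Eif4ebp3 had no probe set that met the member rule and were not analysed. Eif4ebp1, which blocks eIF4E until mTOR phosphorylates it, had 650 and 845 units in HSC, against 614 and 558 units in MPP, in its brightest probe set (log2 difference 0.34, limma adjusted p = 0.294). Its other tested probe sets had log2 differences of 0.21 and -0.49 and were not called. In the dimmest, with -0.49, both HSC arrays lay below both MPP arrays. Eif4ebp2, of the same function, had 130 and 130 units in HSC, against 123 and 267 units in MPP. Its MPP arrays lay on both sides of its HSC arrays. The scaffolds Eif4g2, which lacks the eIF4E-binding part, and Eif4g3 had 8 tested probe sets between them with a median of -0.15 (-0.39 with equal medians, -0.16 after quantile normalization) and none called (1 lower at an unadjusted p under 0.05). The helicase helpers Eif4b and Eif4h had 9 tested probe sets with a median of -0.02 (-0.25 with equal medians, -0.14 after quantile normalization and 0.08 without MPP replicate 2), none with an unadjusted p under 0.05. The brightest Eif4h probe set had 7223 and 5731 units in HSC, against 7343 and 7098 units in MPP (limma adjusted p = 0.567).

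Of the subunits of eIF2, carrier of the initiator tRNA, Eif2s2 and Eif2s3x each had 1 probe set called lower in HSC. These genes had 9 tested probe sets, 6 of them of Eif2s2, so they are not 9 separate observations. Of the 9, 2 (22.2%) were called lower (background 4.65%). Both HSC arrays lay below both MPP arrays for 7 (77.8%, background 21.3%). The median log2 difference was -0.45 (-0.69 with equal medians, -0.50 after quantile normalization). Eif2s2, the beta subunit, had 1210 and 1028 units in HSC, against 1800 and 1680 units in MPP in its brightest probe set (gene on chromosome 2). No HSC array reached an MPP array, and the log2 difference was -0.64 ± 0.16 (SE, n = 2 each; limma adjusted p = 0.0279). Its other 5 tested probe sets ran between -0.50 and 0.10, none of them called, and the mean over all its tested probe sets was not called either. Eif2s3x, the X-linked gamma subunit, was lower on average in all 3 of its tested probe sets. The called one, its dimmest, had 54.2 and 69.3 units in HSC, against 137 and 136 units in MPP. The groups were well apart, with a log2 difference of -1.08 ± 0.25 (SE, n = 2 each; limma adjusted p = 0.0196). Its brightest probe set had 311 and 339 units in HSC, against 405 and 493 units in MPP, and missed the threshold (log2 difference -0.45, limma adjusted p = 0.162). Both probe sets of its Y-linked copy Eif2s3y were under background on all arrays. Eif2s1, the alpha subunit, had no probe set that met the member rule and was not analysed.

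eIF2B recycles eIF2 by exchanging its guanine nucleotide, and 1 of its 5 subunit genes was called. Eif2b5, the catalytic epsilon subunit, had 173 and 149 units in HSC, against 277 and 255 units in MPP (gene on chromosome 16). HSC lay wholly below MPP, and the log2 difference was -0.71 ± 0.20 (SE, n = 2 each) with a limma adjusted p of 0.04999, just inside the threshold. Eif2b1, Eif2b2, Eif2b3 and Eif2b4 had brightest probe sets with log2 differences from -0.22 to 0.04 and were not called. The 4 kinases that phosphorylate eIF2 were also not called in any of 9 tested probe sets (1 higher at an unadjusted p under 0.05, median 0.23, but 0.00 with equal medians and 0.10 after quantile normalization). Eif2ak3, the kinase of endoplasmic reticulum stress also called PERK, had 223 and 264 units in HSC, against 183 and 159 units in MPP. Its groups did not overlap (log2 difference 0.50, limma adjusted p = 0.170). Eif2ak4, which senses amino acid shortage, had 299 and 337 units in HSC, against 273 and 329 units in MPP (limma adjusted p = 0.845). Eif2ak1, the heme-regulated kinase, had a log2 difference of -0.17 and Eif2ak2, which senses double-stranded RNA, one of 0.06 in their brightest probe sets. Eif2a and Eif2d, which can bring initiator tRNA to the ribosome without eIF2, had 6 tested probe sets, none called or with an unadjusted p under 0.05, and none with separate groups.

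**Figure D4:**
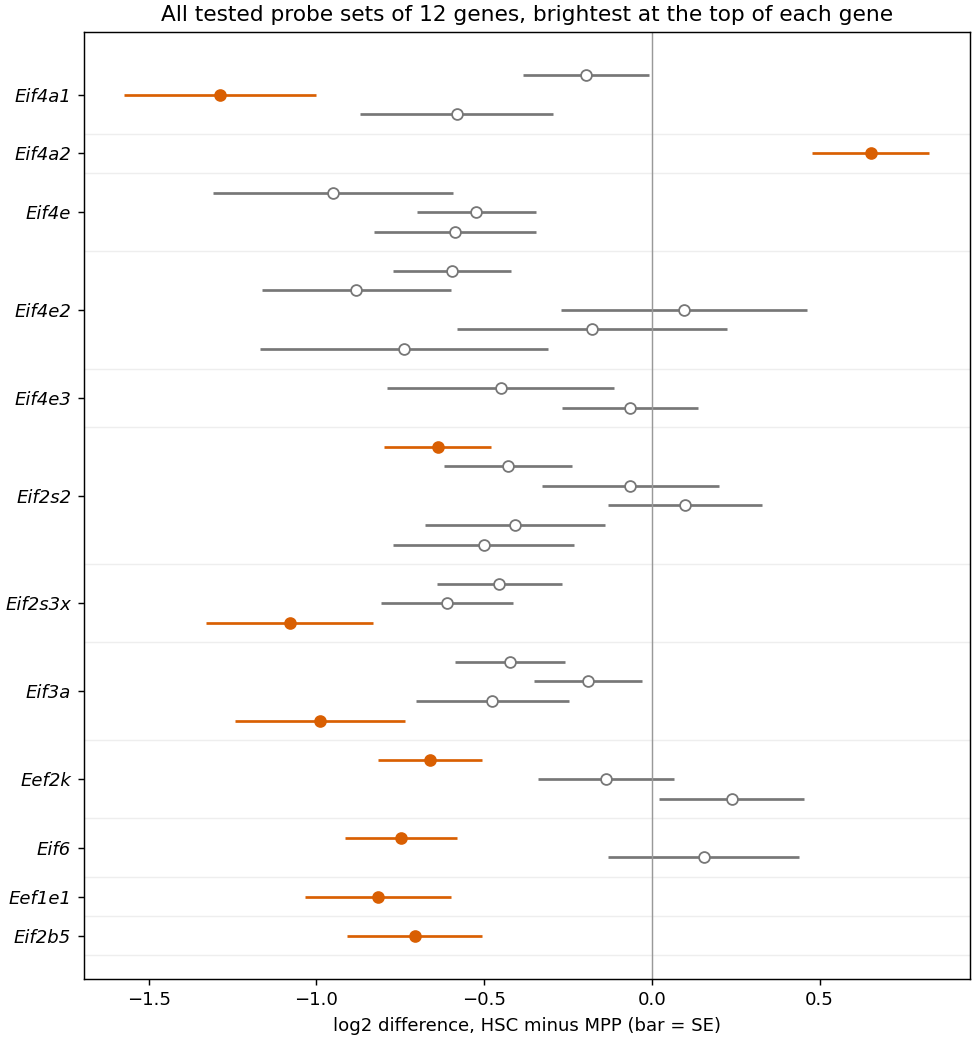
Log2 difference (HSC minus MPP) with its standard error for every tested probe set of 12 genes, with called ones in orange. The probe sets of Eif4a1, Eif2s3x and Eif3a all lie below 0, whereas those of Eef2k and Eif6 lie on both sides.

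eIF3, the large scaffold on the small ribosomal subunit, held 1 call. Of 22 tested probe sets of 11 subunit genes, that of Eif3a was called lower, and the median log2 difference was -0.08 (-0.31 with equal medians, 0.01 after quantile normalization). The dimmest probe set of Eif3a, the largest subunit, was the called one, with 77.9 and 56.8 units in HSC, against 144 and 132 units in MPP. The groups did not overlap, and the log2 difference was -0.99 ± 0.25 (SE, n = 2 each; limma adjusted p = 0.0318). The brightest Eif3a probe set had 1594 and 1947 units in HSC, against 2208 and 2530 units in MPP (log2 difference -0.42, limma adjusted p = 0.140). Eif3e, a subunit known from the mouse mammary tumor virus insertion site Int6, had 5306 and 5034 units in HSC, against 4937 and 5100 units in MPP. Its groups overlapped, and its difference of 0.04 had a standard error of 0.14. Eif3f, another core subunit, had 5724 and 6142 units in HSC, against 5086 and 5672 units in MPP (log2 difference 0.14, limma adjusted p = 0.599).

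The factors of start-codon choice and subunit joining included 1 call, in Eif6. Eif6, which keeps the large ribosomal subunit from joining too early and also acts in its making, had 576 and 496 units in HSC, against 918 and 885 units in MPP in its brighter probe set (gene on chromosome 2). No HSC array reached an MPP array, and the log2 difference was -0.75 ± 0.17 (SE, n = 2 each; limma adjusted p = 0.0166). Its second, dimmer probe set had 58.6 and 63.4 units in HSC, against 48.2 and 60.8 units in MPP, a difference of the other sign that did not pass. Among the 8 tested probe sets of the eIF1 group, which acts in scanning for the start codon, none was called (1 higher and 1 lower at an unadjusted p under 0.05). Eif1ax, the X-linked gene of the scanning factor eIF1A, had 581 and 814 units in HSC, against 1014 and 944 units in MPP (log2 difference -0.50, limma adjusted p = 0.127). Eif1b, a close relative of the start-codon factor eIF1, had 907 and 803 units in HSC, against 617 and 653 units in MPP (log2 difference 0.42, limma adjusted p = 0.139). In their brightest probe sets, Eif1ax and Eif1b lay on opposite sides of 0, each without overlap of its groups. The other tested Eif1ax probe sets had log2 differences of -0.41 and 0.05 and were not called. Groups overlapped in the one with 0.05. Eif1a, an autosomal copy, differed by -0.37 (limma adjusted p = 0.214). Eif1, the gene of eIF1 itself, had no probe set that met the member rule. Eif5, the activator of GTP hydrolysis by eIF2, had 2174 and 2033 units in HSC, against 2148 and 2126 units in MPP. All 5 of its probe sets had log2 differences between -0.27 and -0.02. Eif5a, the hypusine-bearing factor that helps the ribosome past difficult peptide bonds, had 4019 and 3930 units in HSC, against 4144 and 4533 units in MPP (log2 difference -0.12, limma adjusted p = 0.647). Its paralog Eif5a2 had 52.0 and 50.4 units in HSC, against 28.2 and 41.4 units in MPP (log2 difference 0.51, limma adjusted p = 0.381).

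The elongation group had a positive median log2 difference, 0.18 over 19 tested probe sets, but it was -0.05 with equal medians. None of its members was called higher (1 higher at an unadjusted p under 0.05), and those of Eef1e1 and Eef2k were called lower. Eef1a1, which delivers aminoacyl-tRNA, had 12475 and 14800 units in HSC, against 12007 and 10686 units in MPP (log2 difference 0.26, limma adjusted p = 0.330). The difference was -0.0065 after quantile normalization, and without HSC replicate 1 it was 0.39 and called (limma adjusted p = 0.0458). Its tissue-restricted paralog Eef1a2 had 90.8 and 80.6 units in HSC, against 46.9 and 84.0 units in MPP, and the groups overlapped. Eef1b2, the exchange factor of eEF1A, had 4719 and 5684 units in HSC, against 4635 and 4516 units in MPP (limma adjusted p = 0.518). Eef2, the translocase, had 3488 and 2866 units in HSC, against 2390 and 2069 units in MPP. Its groups did not overlap, but its log2 difference of 0.51 had a limma adjusted p of 0.0760, and it was called under quantile normalization.

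Eef2k, the calcium-dependent kinase that halts eEF2, was lower in HSC in its brightest probe set, with 753 and 814 units in HSC, against 1232 and 1251 units in MPP. HSC lay wholly below MPP, and the log2 difference was -0.66 ± 0.16 (SE, n = 2 each; limma adjusted p = 0.0216). Its other probe sets had differences of -0.14 and 0.24 and were not called, and the mean over all 3 was not called either. Eef1e1, a scaffold protein of the multi-tRNA synthetase complex, had 366 and 247 units in HSC, against 488 and 586 units in MPP (gene on chromosome 13). The groups did not overlap, and the log2 difference was -0.82 ± 0.22 (SE, n = 2 each; limma adjusted p = 0.0379). The enzymes that methylate eEF1A, from Eef1akmt1, Eef1akmt2 and Eef1aknmt, had 8 tested probe sets with a median of 0.27 (0.04 with equal medians, 0.17 after quantile normalization and 0.02 without MPP replicate 2), none called or with an unadjusted p under 0.05.

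Probe sets of 1 gene often differed. Of 36 genes with several tested probe sets, 18 had all of them on 1 side of 0 and 18 did not, with a median spread of 0.46 on the log2 scale. The 6 called genes with several included 3 on 1 side of 0 throughout, and none had all its probe sets called. The 25 probe sets that were not tested read between 0.342 and 36.3 units, 16 of them at or under background on all 4 arrays. Averaging the tested probe sets of each gene left 1 higher (Eif4a2, background 8.33%) and 5 lower (Eef1e1, Eif2b5, Eif2s3x, Eif4a1 and Eif4e, background 5.86%) of 56 genes. The median log2 difference was -0.02 over these genes and 0.11 over all 12382 genes.

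Other genes of translation, from lists chosen with results of these data known, held 2 higher and 3 lower genes of 46 tested (50 listed). These 10.9% count each gene by its brightest tested probe set, whereas the 10.6% called in the series count all tested probe sets. With the tested probe sets of each gene averaged, 8.33% of all genes were higher and 5.86% lower. Abce1, which recycles ribosomes after termination, had 281 and 283 units in HSC, against 601 and 573 units in MPP. HSC read below MPP on every array, and the log2 difference was -1.04 (limma adjusted p = 0.00345). The termination factor Gspt1 was lower in HSC by a log2 difference of -0.62 (limma adjusted p = 0.0369), and Denr, a partner in ribosome recycling, by -0.63 (limma adjusted p = 0.0466). Pdcd4, an inhibitor of eIF4A, was higher in HSC by 0.66 (limma adjusted p = 0.0393), and by 0.42 with equal medians, where its call was lost (limma adjusted p = 0.143). Of 13 alternatives for Pdcd4 and Denr and 12 for Gspt1, the calls were lost under 6 for Pdcd4, 7 for Denr and 6 for Gspt1. Trib3, a target of the eIF2 stress response, had 160 and 163 units in HSC, against 29.7 and 3.61 units in MPP, where the second value lay under background. Its log2 difference was 3.17 (limma adjusted p = 0.00281), and it was 4.12 without MPP replicate 1 and 2.23 without MPP replicate 2. The call was lost without the trend. Trib3 was the only call among 9 tested targets and brakes of eIF2 phosphorylation (11.1%), whose median log2 difference was -0.15. At an unadjusted limma p under 0.05, 4 of these 9 were higher, Trib3 among them (background 14.4%), and 0 lower (background 9.93%). Of the eIF4E kinases, Mknk1 had a difference of 0.75 (limma adjusted p = 0.154) and Mknk2 one of 0.36 (limma adjusted p = 0.189). The 8 tested mitochondrial translation factors held no call or unadjusted p under 0.05.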

How the data were processed

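The labels' protocols name total RNA from sorted cells, ISOGEN extraction and biotinylated cRNA, with RNA of 3000 cells as input and 2 amplification cycles, hybridised to the Affymetrix Mouse Genome 430 2.0 array. Such amplification favours 3′ ends and can blur low signals. The deposited table holds linear intensity values in arbitrary units. As deposited, every array had a trimmed mean (2% off each end) of 100.0. Their software was not given in the sources used here. Median intensities were 26.1 and 26.9 in HSC and 22.0 and 21.3 in MPP. The number of arrays limits the precision.

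Of 45101 probe sets, 64 controls were left out. Gene symbols came from the platform annotation, updated through RefSeq (GRCm38.p6); 34945 probe sets had 1 symbol, 34741 of them matched, and so did all 156 members. Intensities were tested as log2(intensity + 6.01), without the lowest 40% by mean level, by limma's lmFit and eBayes with a trend (limma 3.58.1, R 4.3.3), 2-sided, on 2 residual and 8.48 prior degrees of freedom. Benjamini-Hochberg adjustment ran over all 27022 probe sets tested. A log2 difference on this scale understates the change of dim probe sets. Background was the highest signal of 27 Bacillus subtilis controls on each array: 16.9 and 16.7 in HSC, and 14.9 and 13.6 in MPP. A gene is represented by its brightest tested probe set. Scripts were tested on simulated data.

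Named genes were those called, those with the brightest probe sets in each factor group, and fixed paralog families; other genes were added where a sentence needed them. Some listed genes were not analysed here. The members and lists were chosen with earlier results of these data known. Alternatives changed the pseudocount, filter, normalization, trend, probe set types, replicate block, each replicate left out, and the averaging of a gene's probe sets. The pairing check gave a correlation of 0.027 between the deviations of same-numbered arrays from their group means.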

Additional observations from a re-analysis of the deposited data

How the results depend on the processing

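With 2 arrays a group, calls depend on the spread borrowed across probe sets. Member probe sets higher and lower in HSC numbered 1 and 8 as reported, with a median of -0.06. They numbered 0 and 2 without the filter on dim probe sets and 2 and 5 after quantile normalization. With equal array medians they numbered 0 and 21 (median -0.30). In limma without the trend they numbered 0 and 0 (2 higher and 11 lower at an unadjusted p under 0.05). Without probe sets that can match several transcripts they numbered 2 and 5. There 84 members were tested and 8.33% of them called, against 10.1% of all probe sets. Of the 9 calls, 7 were still tested in that setting. Leaving out 1 array gave 0 to 4 higher and 0 to 13 lower: 4 and 13 without HSC replicate 1, 3 and 9 without HSC replicate 2, 0 and 1 without MPP replicate 1, and 0 and 0 without MPP replicate 2. Other translation genes numbered 2 higher and 3 lower as reported. They numbered 1 and 1 without the filter, 1 lower after quantile normalization, 1 and 6 with equal medians, 0 and 0 without the trend, 1 higher without probe sets that can match several transcripts, and 1 to 5 in each direction with 1 array left out. Of the 9 calls, Eif4a1 was lost under 3 alternatives and Eif2b5 under 7. The causes of these changes were not tested. No called value changed sign.

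The replicate numbers are not shown to pair the arrays (r = 0.027 over 27022 probe sets). With the replicate number as a block, 2 members were higher and 13 lower, or 11.5% of members, against 16.1% of all probe sets. In that setting 7 other translation genes were higher and 4 lower.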
